A study of Mus musculus with 6 samples.

Results

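DNA methylation around 6 genes of the myeloid lineage was described in 3 stages of mouse blood formation. The genes are Cebpa, Cebpe, Irf8 and Gfi1, which code for transcription factors, and Csf1r and Csf3r, which code for cytokine receptors. Each gene stands for a fixed window of the mm9 genome around it, with Cebpa's window drawn to take in its distal enhancer. All peaks that share at least 1 bp with a window were taken, whatever their size. The 6 windows cover 340 kb and hold 37 of the 164274 peaks in the deposited lists. Stem cells account for 16 of 85797 peaks, common myeloid progenitors for 13 of 50638 and erythroblasts for 8 of 27839.

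Methylated DNA had been pulled down with MBD2, a protein that binds methylated CpG dinucleotides, and sequenced. There was 1 MBD2-enriched library for each of 3 groups, hematopoietic stem cells (abbreviated HSC), common myeloid progenitors (CMP) and the nucleated red cell precursors named erythroblasts (ERY). All samples are labelled as female C57BL/6, and the HSC and CMP are described as coming from the bone marrow of adult mice. The HSC gate took lineage-negative marrow cells with both Sca-1 and c-kit, and the CMP gate took those with c-kit but without Sca-1. The stem cell gate is known to hold multipotent progenitors as well as stem cells. The CMP gate is known to hold granulocyte-monocyte and megakaryocyte-erythroid progenitors too, and the labels name no further marker that would separate them. For the erythroblasts, the labels give no source tissue or sorting step of their own. The files hold no expression values, so cell identity could not be checked against marker genes. The 3 supernatant libraries of the series are not analysed here.

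In mammals most cytosines of CpG sites are methylated, while CpG-rich gene starts and active enhancers usually are not. Loss of methylation at enhancers and gene bodies of lineage genes is a known feature of blood cell differentiation. C/EBPα, the product of Cebpa, is needed for progenitors to enter the granulocyte and monocyte lineages. C/EBPε acts later, in the final maturation of granulocytes. IRF8 directs progenitors towards monocytes and dendritic cells, and GFI1, a zinc finger repressor, towards neutrophils. The product of Csf1r is the receptor for macrophage colony-stimulating factor, and that of Csf3r the receptor for granulocyte colony-stimulating factor.

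Capture by MBD2 depends on the CpG sites of a fragment, and the CpG content of gene starts differed widely, between genes and between starts of the same gene. RefSeq promoter sequences (GRCm38.p6) were matched by symbol for Cebpa, Irf8, Gfi1 and Csf3r, 4 of the 6 genes, and not for Cebpe and Csf1r. The 250 bases before a transcription start are shown 5′ to 3′ on the gene's strand for these 4, to set their CpG sites side by side, with each CpG in capitals. They lie at chr7:35119043-35119292 (+), chr8:120736108-120736357 (+), chr5:107725806-107726055 (-) and chr4:126024409-126024658 (+) of GRCm38.p6, positions that cannot be set against those of the mm9 peaks. The Csf3r start is the single one the table holds and lies inside the annotated span of the gene.
Cebpa: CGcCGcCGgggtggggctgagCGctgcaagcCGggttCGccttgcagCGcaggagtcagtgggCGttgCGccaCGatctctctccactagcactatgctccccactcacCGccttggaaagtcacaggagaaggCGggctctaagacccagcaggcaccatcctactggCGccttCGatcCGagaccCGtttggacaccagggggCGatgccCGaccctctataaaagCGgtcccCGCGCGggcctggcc
Irf8: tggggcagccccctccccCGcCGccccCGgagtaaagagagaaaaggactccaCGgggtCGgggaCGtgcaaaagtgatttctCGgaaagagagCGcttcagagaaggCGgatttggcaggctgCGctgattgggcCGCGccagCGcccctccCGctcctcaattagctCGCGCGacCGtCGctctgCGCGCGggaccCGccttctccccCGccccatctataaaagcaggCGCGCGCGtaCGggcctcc
Gfi1: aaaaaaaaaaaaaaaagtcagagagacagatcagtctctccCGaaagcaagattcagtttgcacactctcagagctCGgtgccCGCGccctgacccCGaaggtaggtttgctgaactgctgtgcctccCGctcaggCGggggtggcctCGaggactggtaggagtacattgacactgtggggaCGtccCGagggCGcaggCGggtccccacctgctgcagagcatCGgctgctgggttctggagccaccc
Csf3r: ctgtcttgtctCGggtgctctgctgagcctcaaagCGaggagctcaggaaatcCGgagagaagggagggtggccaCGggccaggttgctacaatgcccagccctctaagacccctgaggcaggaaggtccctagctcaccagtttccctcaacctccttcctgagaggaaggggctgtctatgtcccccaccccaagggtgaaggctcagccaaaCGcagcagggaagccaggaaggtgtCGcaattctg

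The Irf8 stretch holds 29 CpG sites, that of Cebpa 22, that of Gfi1 13 and that of Csf3r 6. Among all 32851 RefSeq promoters of the table the median was 6, with quartiles of 2 and 16. At least as many CpG sites as Irf8 were found in 6.78% of them, as Cebpa in 14.8%, as Gfi1 in 31.5% and as Csf3r in 50.4%. A second start of Irf8 has 8 CpG sites and a second start of Gfi1 has 9. Both lie inside their genes, as the Csf3r start with its 6 does, so Csf3r is not comparable with the 5′ starts. The letters GGAA, the core that ETS factors such as PU.1 bind, were searched on both strands of the same 250 bases. They were found 7 times at Csf3r, 1 time each at Cebpa and at the 5′ start of Irf8, and 0 times at the 5′ start of Gfi1. The second start of Irf8 has 2 and that of Gfi1 has 4, so both starts inside these genes hold more than the 5′ starts. The Csf3r stretch belongs to a start of that inner kind and cannot be set against the 5′ starts of the others. Of all promoters 93.4% hold GGAA at least 1 time, 76.8% at least 2 times, 33.4% at least 4 times and 3.82% at least 7 times.

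Peak positions below are given on mm9, the build of the submitters' processing notes, counted from 1. A gene annotation of mm9 was not used here, so no peak is assigned to a promoter, exon, intron or enhancer, and positions are given from the start of each window. In the GRCm38 gene table the nearest protein-coding neighbours are Gm45095 and Slc7a10 for Cebpa, Gm29776 and Slc7a8 for Cebpe, Cox4i1 and Foxf1 for Irf8, Rpap2 and Evi5 for Gfi1, Pdgfrb and Hmgxb3 for Csf1r, and Grik3 and Mrps15 for Csf3r. The annotated genes are 1812 bp (Cebpe) to 25568 bp (Csf1r) long, so parts of the windows lie outside them, and whether a window holds its gene could not be checked on mm9. The lists give no height, score or p-value for a peak, and the read depth is unknown. Absence of a peak thus means that none was called and leaves the methylation of the position unknown. Since each stage had a single library, differences between stages could not be checked on replicates and were not tested.

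The 6 windows fell into distinct patterns. Cebpa had no peak in any list. Csf3r had 1 peak at the same place in all 3 lists, and Gfi1 had 1 in HSC and CMP and none in ERY. Irf8 and Csf1r had fewer peaks at each stage, with 8, 4 and 3 in HSC, CMP and ERY for Irf8 and 4, 3 and 1 for Csf1r. Cebpe had 2, 4 and 3 and was the single window with more peaks in ERY or CMP than in HSC.

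**Figure D1:**
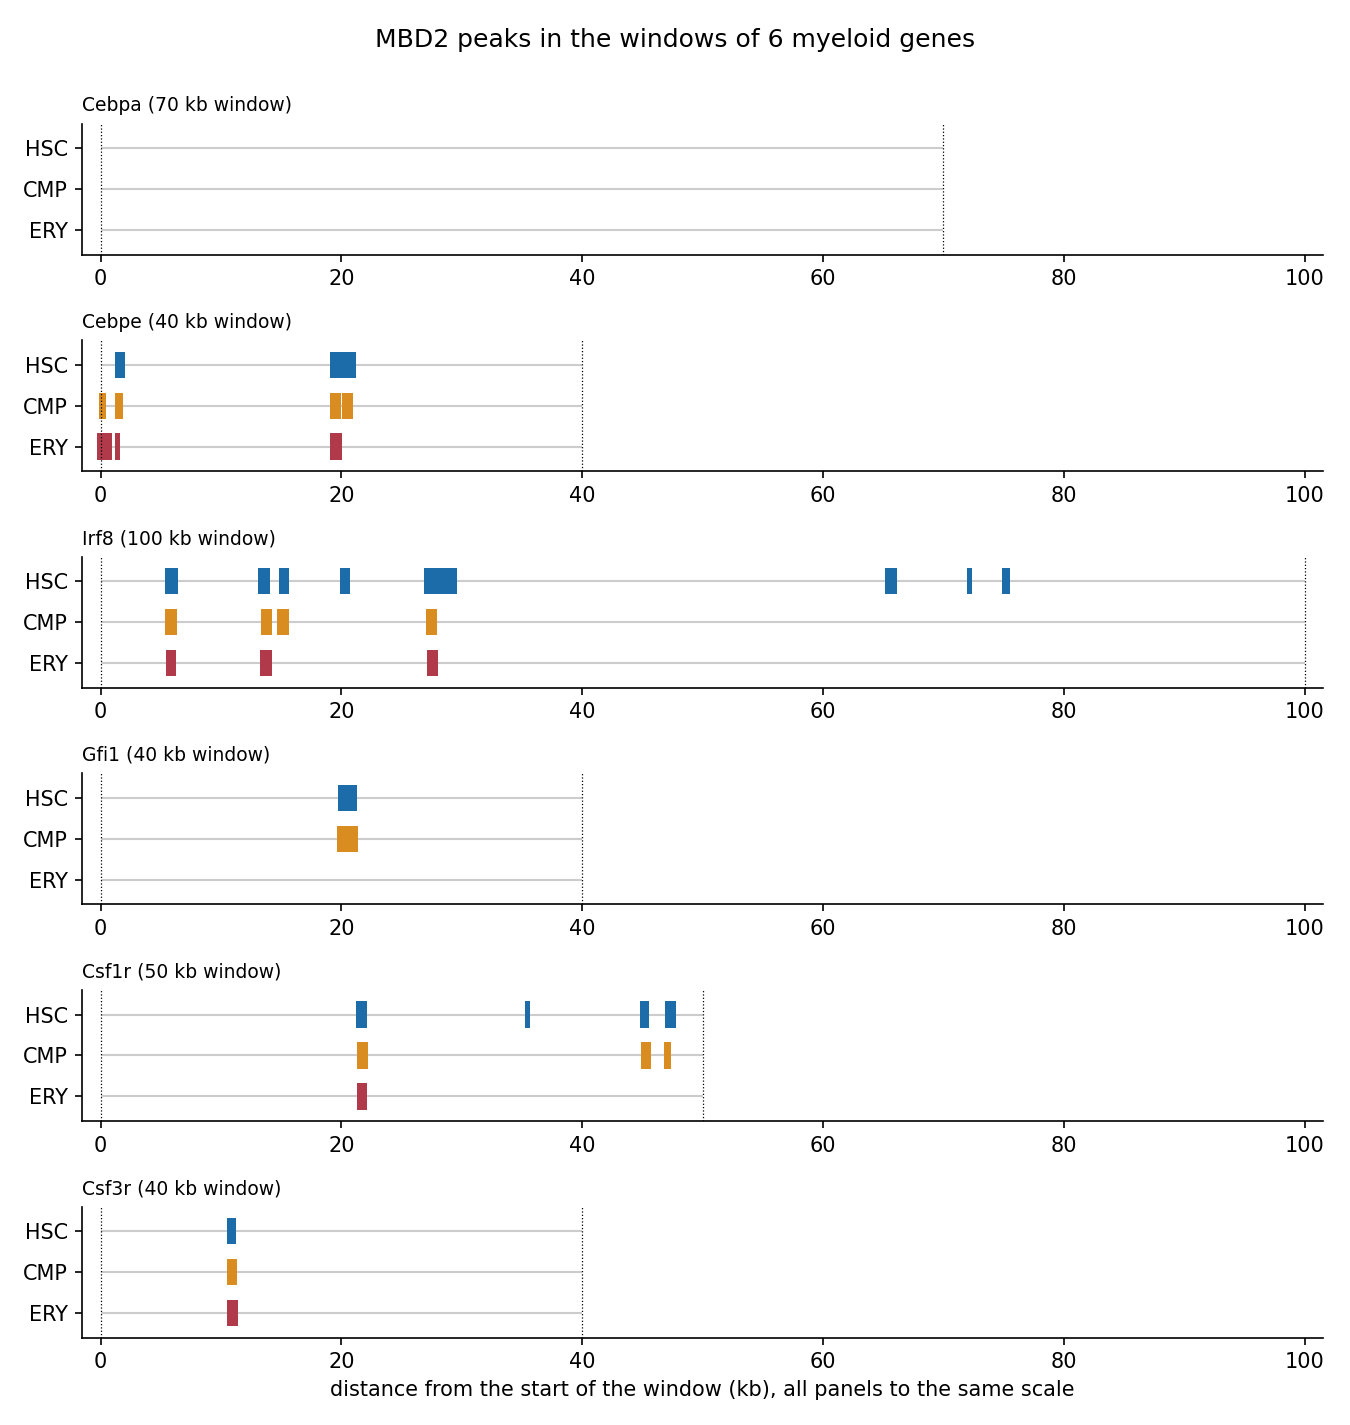
Positions of the MBD2 peaks of the HSC, CMP and ERY lists (rows of each panel) in the windows of the 6 genes, by distance in kb from the start of the window, with dotted lines at the window's ends and all panels to the same scale. The Cebpa panel is empty in all 3 rows, the last 3 peaks of Irf8 appear in the HSC row alone, and the single peak of Csf3r stands at the same place in all rows.

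Over the 6 windows together the density was 47.1 peaks per Mb for HSC, 38.2 for CMP and 23.5 for ERY. The whole lists held 33.3, 19.6 and 10.8 peaks per Mb of the part of the chromosomes that peaks span. Peak number in CMP was thus 81.2% of that in HSC in the windows and 59.0% in the whole lists, and ERY had 8 peaks for the 16 of HSC in the windows and 32.4% of the HSC number in the whole lists. In covered bases, CMP held 69.6% of HSC in the windows and 62.6% in the whole lists, and ERY 40.0% and 33.0%. These pooled shares depend on Cebpe, whose 2, 4 and 3 peaks in HSC, CMP and ERY raise them. Without Cebpe the windows held 14 HSC, 9 CMP and 5 ERY peaks, which lies nearer to the shares of the whole lists. By window, CMP held 96.6% of the HSC bases at Cebpe, 46.0% at Irf8, 110% at Gfi1, 78.4% at Csf1r and 109% at Csf3r. For ERY the shares were 79.0, 31.0, 0, 26.2 and 123% in the same order. Peaks were slightly wider than in the lists at large, with medians of 862, 907 and 905 bp in the windows for HSC, CMP and ERY, against 748, 818 and 788 bp in all. In HSC each window was sparser than its own flanks (500 kb on each side, 1 Mb in all), which held 27 (Gfi1) to 120 (Irf8) peaks. CMP was denser than in the flanks at Cebpe, Gfi1 and Csf1r (100, 25 and 60 peaks per Mb against 61, 16 and 48) and sparser at the other genes. ERY was denser at Cebpe and Csf3r (75 and 25 against 50 and 24) and sparser elsewhere.

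**Figure D2:**
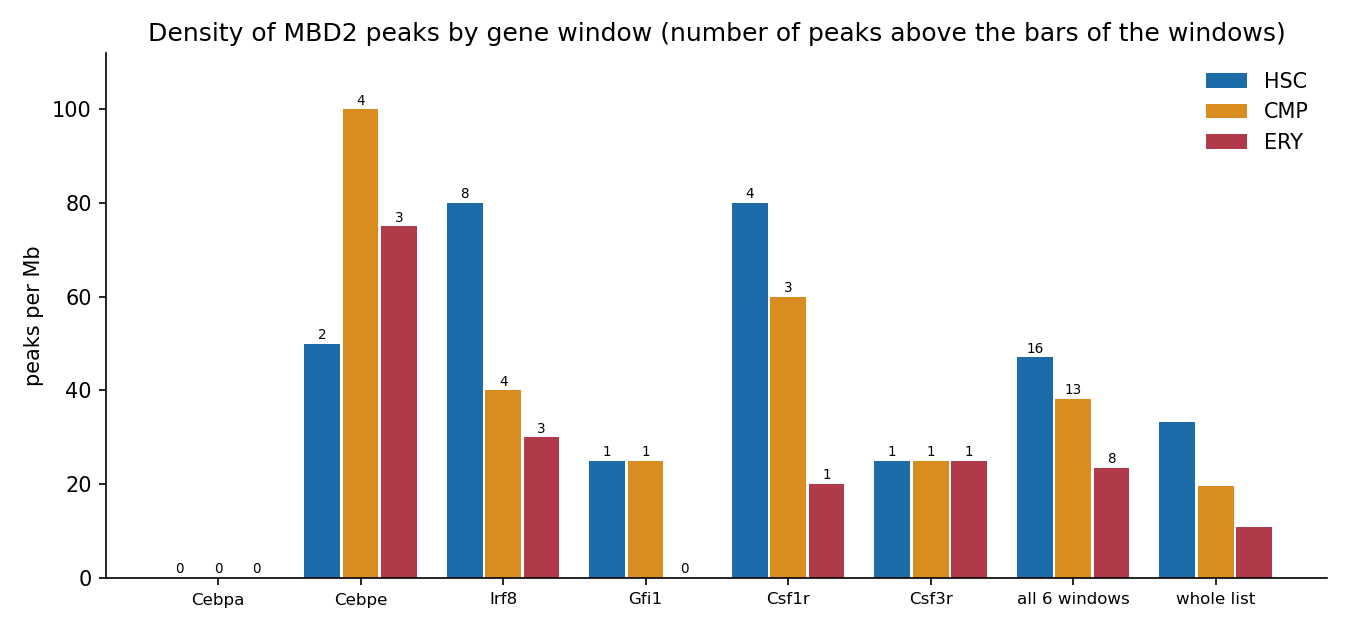
Peaks per Mb (vertical axis) of the HSC, CMP and ERY lists in each gene window, in the 6 windows together and in the whole lists, with the number of peaks printed above the bars of the windows. The windows of Irf8 and Csf1r reach 80.0 peaks per Mb in HSC, Cebpa stays at 0 in all lists, and Cebpe is highest in CMP with 4 peaks in 40 kb.

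Of the 16 HSC peaks in the windows, 5 had no CMP peak (31.2%, 95% exact binomial interval 11.0 to 58.7%), against 42.9% of all HSC peaks. Of these 5 peaks, 4 lay in the Irf8 window and 1 in the Csf1r window. Without Irf8 the count was 1 of 8 (12.5%). Of the 13 CMP peaks, 5 had no ERY peak (38.5%, 13.9 to 68.4%), against 49.3% of all CMP peaks. They were spread over 4 windows, with 2 at Csf1r and 1 each at Cebpe, Irf8 and Gfi1. Of the 16 HSC peaks, 9 had no ERY peak (56.2%, 29.9 to 80.2%), against 69.1% of all HSC peaks. When at least 50% of the HSC peak had to be covered in ERY, 12 of 16 had no counterpart (75%), against 70.9% of all HSC peaks, so the side on which the windows lie depends on the overlap asked for. The intervals cover counting error only and treat peaks as independent, which neighbours in a window need not be. Each interval holds the share of the whole list, so at this number of peaks no difference from the genome was detectable.

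Peak width was related to retention in the whole lists, so the peaks of the windows were also set against peaks of like width. Each list was cut into 10 equal width classes. Applying the share kept in the matching class to every member peak gives 9.95 HSC peaks kept in CMP, where 11 were kept. It gives 7.28 CMP peaks kept in ERY, where 8 were kept, and 5.73 HSC peaks kept in ERY, where 7 were kept. The 3 counts lay 0.725 to 1.27 peaks above the values at the rate of like widths.

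**Figure D3:**
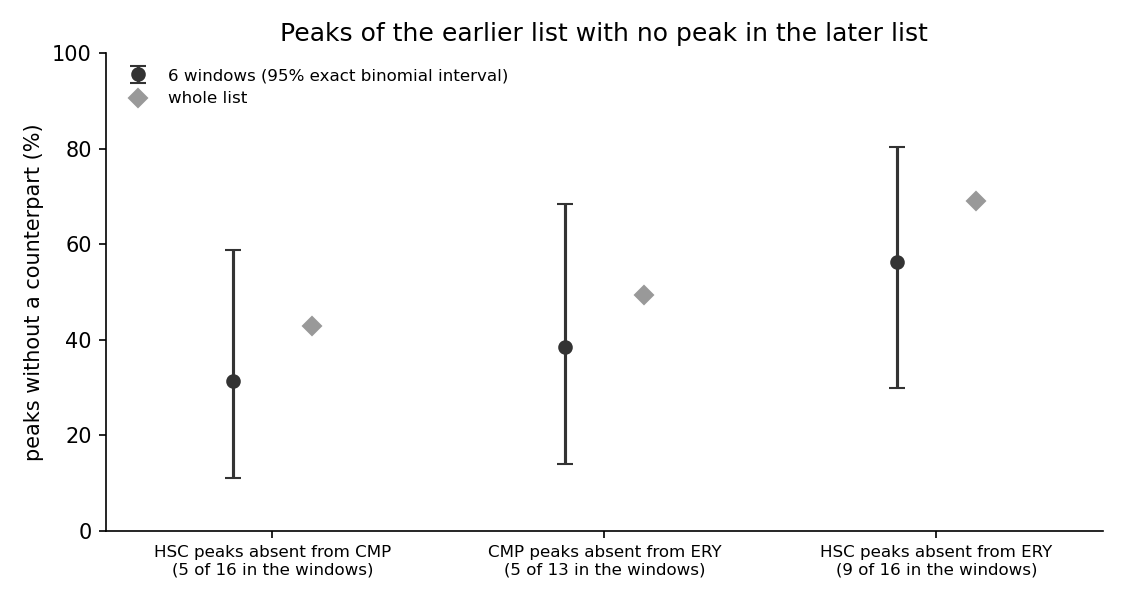
Share of peaks of the earlier list without a counterpart in the later list (vertical axis, %), for the 3 pairs of lists, in the 6 windows (circles, with 95% exact binomial intervals) and in the whole list (diamonds). The windows lie at 31.2, 38.5 and 56.2% and the whole lists at 42.9, 49.3 and 69.1%, inside the interval of the windows in each pair.

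When the 3 lists were merged, the windows held 17 regions. A peak in all 3 lists was found in 7 of them (28.5% of all 87514 merged regions have this pattern), in HSC and CMP in 4 (26.4% of all) and in HSC alone in 5 (40.7% of all). A single region had a peak in CMP and ERY and none in HSC, a pattern of 0.323% of all regions. The remaining patterns (HSC with ERY, CMP alone and ERY alone) had 0 regions in the windows and 1.2%, 1.72% and 1.16% of all. Of the 8 ERY peaks in the windows, 0 were without a CMP peak (95% exact binomial interval 0 to 36.9%), against 7.52% of all ERY peaks, a share that 8 peaks cannot tell from 0. With at least 50% of the ERY peak to be covered, 1 of 8 was without one (12.5%), against 7.95% of all. Where an HSC peak was absent from CMP in these windows, it was absent from ERY as well, in 5 of 5 cases, which is near the 96.9% of all such HSC peaks.

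Cebpa, the regulator at the entry to the granulocyte-monocyte path, had no peak in its window at chr7:35890001-35960000 in any stage. The stretch without a peak was longer than the window. In HSC it ran for 124 kb, from 35836270 to 35960598, and ended at an HSC peak of 593 bp that lies 0.598 kb beyond the window (35960599 to 35961191). This peak had no counterpart in CMP or ERY, where the stretch was 151 kb in each. It ended there at a wide region present in all lists, with an HSC peak of 3532 bp at 35986919 to 35990450, a CMP peak of 3241 bp at 35987074 to 35990314 and an ERY peak of 2394 bp at 35987206 to 35989599. Windows without a peak are common. Of 36789 consecutive 70 kb windows along the spanned chromosomes, 27.5% held no peak of any list, and stretches as long as that around Cebpa make up 33.9% of the spanned bases. The surroundings were not empty, since the 500 kb on either side of the window together held 73 HSC, 41 CMP and 23 ERY peaks.

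Cebpe, which acts in granulocyte maturation, had 3 merged regions in its window at chr14:55310001-55350000, and the lists differed in all 3. The first region lay across the start of the window and had no HSC peak. ERY had a peak of 1248 bp there (55309739 to 55310986), wider than 93.4% of all ERY peaks, and CMP one of 579 bp (55309873 to 55310451). The nearest HSC peak began 227 bp after the ERY peak and 762 bp after the CMP peak. CMP peaks without an HSC peak were 1 of 13 in the windows, against 3.54% of all CMP peaks, and ERY peaks without an HSC peak 1 of 8, against 4.68% of all. Both counts rest on this region.

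The second Cebpe region, whose HSC peak starts 1.21 kb into the window, covered fewer bases at each stage. Its width was 814 bp in stem cells, 590 bp in progenitors and 406 bp in erythroblasts. The left edge differed by at most 26 bp between the lists, while the right edge lay 198 bp before that of HSC in CMP and 386 bp before it in ERY. The third began 19.0 kb into the window as 1 HSC peak of 2180 bp (55329034 to 55331213), wider than 99.3% of all HSC peaks. In its place CMP had a pair of peaks of 943 bp and 907 bp, and ERY had 1 peak of 973 bp that overlapped the first of the pair. The left edges of the 3 lists lay within 15 bp of each other, while on the right the ERY peak ended 1192 bp before the HSC peak. An HSC peak overlapped by at least 2 CMP peaks was found 1 time among the 16 of the windows, against 0.844% of all HSC peaks and 27.0% of the 962 HSC peaks of at least 2000 bp. With its edge region and the split peak the Cebpe window reached 4 CMP peaks, and narrowed by 10% on each side it held 1 HSC, 2 CMP and 1 ERY peaks. Among 8429 consecutive 40 kb windows with 2 HSC peaks, the median was 1 CMP peak and 0 ERY peaks.

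Irf8, the regulator of monocyte and dendritic cell fate, had 8 HSC peaks in its window at chr8:123250001-123350000, which at 100 kb is the longest of the 6. Its density in HSC, 80.0 peaks per Mb, was the same as that of Csf1r. Its 4 CMP and 3 ERY peaks equalled the numbers of Cebpe, whose window of 40 kb was denser in CMP (100 per Mb, against 40 at Irf8) and in ERY (75 against 30). At least 8 HSC peaks were found in 12.7% of 25749 consecutive 100 kb windows. Those with exactly 8 held a median of 4 CMP peaks (quartiles 3 and 6) and 2 ERY peaks (quartiles 1 and 4), where Irf8 had 4 and 3. The peaks formed a group in the first 30 kb and another between 65.1 and 75.5 kb, with 35.5 kb free of HSC peaks between them.

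The first group at Irf8 was partly present in the later lists and the second was absent from them. Peaks of all 3 lists were present in 3 regions that start 5.33, 13.1 and 26.9 kb into the window. Another region, at 14.6 kb, had a CMP peak of 1035 bp and an HSC peak of 811 bp and no ERY peak, and 415 bp separated the CMP peak from the ERY peak of the preceding region. A peak at 19.9 kb was found in HSC alone. The second group, with HSC peaks of 970, 396 and 676 bp at 123315136 to 123316105, 123321941 to 123322336 and 123324852 to 123325527, had no CMP or ERY peak at all. The last 72.0 kb of the window were thus without a peak in both ERY and CMP, against a longest stretch of 35.5 kb in HSC. The whole CMP and ERY lists are sparser, with 19.6 and 10.8 peaks per Mb against 33.3 in HSC. The stretch also runs past the window, to the next CMP peak at 123381179 and the next ERY peak at 123399895. Stretches of at least 277 kb alone make up 47.8% of the bases spanned in the ERY list, so one of this length is common there. In the denser HSC list, stretches of at least 124 kb make up 35.3%. For CMP the share was not counted. Among HSC peaks of the width classes of these 3, CMP had a counterpart for 64.7, 37.1 and 48.0%, and ERY for 36.5, 13.9 and 22.4%.

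The widest HSC peak of the Irf8 window had the smallest share of its bases covered in CMP among the 11 regions that HSC and CMP share in the windows. In HSC it measured 2744 bp (123276880 to 123279623), wider than 99.8% of all HSC peaks. The CMP peak there had 932 bp (123277040 to 123277971), 34.0% of the bases in HSC, and the ERY peak 880 bp (123277146 to 123278025), 32.1%. The CMP and ERY peaks both lay in the left part of the HSC peak, and its right edge was 1652 bp further on than in CMP and 1598 bp further on than in ERY. Of HSC peaks of at least 2000 bp that had a CMP peak, CMP covered a median of 86.3% (quartiles 68.6 and 94.4%) and under 35% in 3.68% of 925 cases. For ERY the median was 67.0% (quartiles 47.2 and 85.7%), with under 35% in 11.3% of 811 cases. This comparison was chosen after the Irf8 peak had been seen.

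Gfi1, the repressor that favours neutrophils, had a single region in its window at chr5:108130001-108170000, 19.7 kb from the start. The peak measured 1711 bp in CMP (108149667 to 108151377), wider than 97.6% of the CMP list, and 1550 bp in HSC (108149760 to 108151309), wider than 96.5% of the HSC list. It reached further in CMP on both sides, by 93 and 68 bp. ERY had no peak there. Of the widest of the 10 width classes, ERY had a counterpart for 61.3% of HSC peaks and for 79.0% of CMP peaks. ERY was without a peak for 277 kb around Gfi1, from 107981480 to 108258681. Stretches at least as long make up 47.8% of the bases spanned in the ERY list. The 1 Mb of flanks around Gfi1 held 27 HSC, 16 CMP and 9 ERY peaks, somewhat below the 33.3, 19.6 and 10.8 per Mb of the whole lists. The flanks of the other 5 genes, with 73 to 120 HSC peaks, were denser than the whole list.

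Csf1r, the receptor gene of the macrophage lineage, had 4 HSC peaks in its window at chr18:61250001-61300000, of which CMP had 3 and ERY 1. The region kept in all 3 lists starts 21.2 kb into the window, with peaks of 915 bp for HSC, 906 bp for CMP and 799 bp for ERY. A peak of 445 bp at 61285262 to 61285706 was present in HSC alone, and 7.94% of HSC peaks are narrower. The last 2 regions, 44.8 and 46.8 kb into the window, were found in HSC and CMP and were absent from ERY. Their peaks measured 856 and 624 bp in CMP, against 776 and 909 bp in HSC. ERY thus had no peak in the last 27.9 kb of the window. Among 2744 consecutive 50 kb windows with 4 HSC peaks, the median was 2 CMP peaks and 1 ERY peak, with quartiles of 2 and 3 for CMP and of 1 and 2 for ERY.

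Csf3r, the receptor gene of the granulocyte lineage, had 1 region in its window at chr4:125690001-125730000, 10.5 kb from the start, and it was present at all 3 stages. The HSC peak was 754 bp wide (125700468 to 125701221), the CMP peak 822 bp (125700498 to 125701319) and the ERY peak 930 bp (125700525 to 125701454). It was the single HSC peak of the windows for which ERY covered more bases than HSC, at 123%. Its right edge lay 98 bp further on in CMP and 233 bp further on in ERY than in HSC, while its left edge moved by 30 and 57 bp in the same direction. Among HSC peaks of like width 57.0% have a CMP peak and 29.7% an ERY peak. The 28.8 kb after the peak in HSC, 28.7 kb in CMP and 28.5 kb in ERY held no further peak of the window. Just beyond it lay an HSC peak of 1176 bp at 125737425 to 125738600, 7.42 kb outside, which had no counterpart in CMP or ERY.

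**Figure D4:**
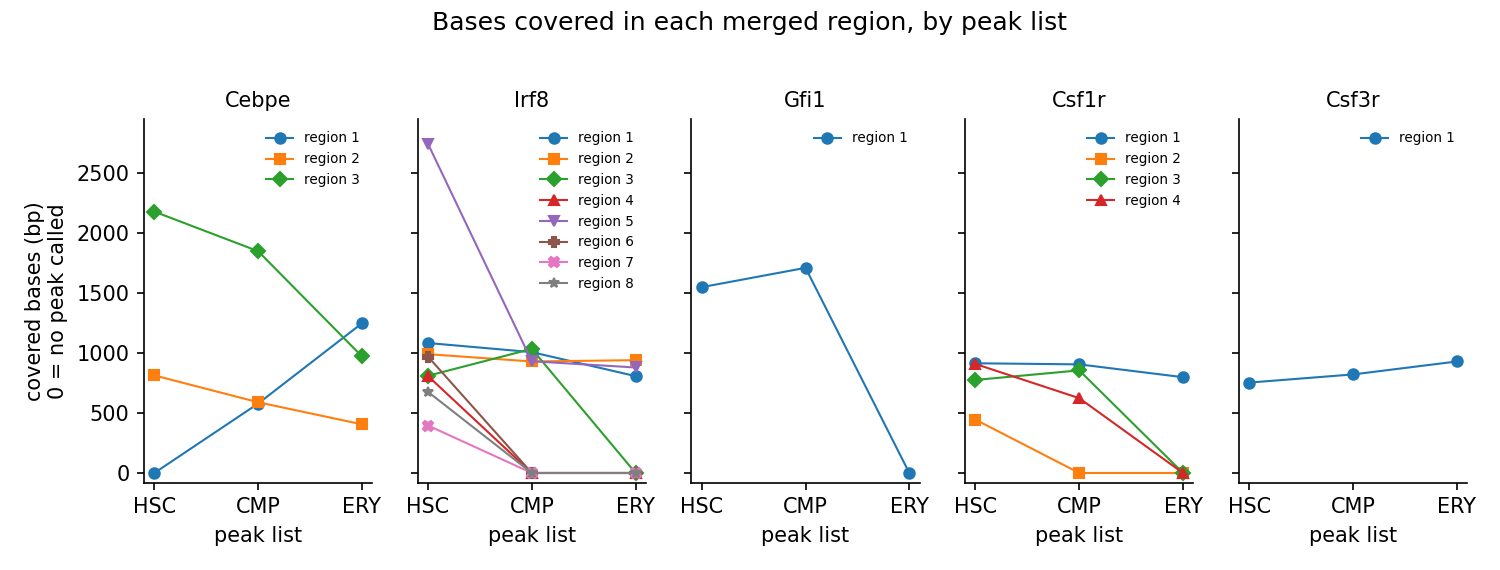
Bases covered by peaks (vertical axis, bp) in each merged region of the 5 windows with peaks, in the HSC, CMP and ERY lists, where 0 means that no peak was called and regions are numbered along the window. The widest HSC peak of Irf8 stands at 34.0% of its bases in CMP and 32.1% in ERY, the single region of Csf3r covers more bases at each stage, and Gfi1 ends at 0 in ERY.

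Among the regions that lists share, ERY peaks were mostly narrower than HSC peaks, as they were in the whole lists. In 6 of 7 shared regions of the windows ERY covered less than HSC, against 64.6% of all 25989 shared regions, with a median of 74.5% of the HSC bases against 89.6% in all. These shares set the summed peak bases of 1 list in a merged region against those of the other. ERY had under 50% of the HSC number of bases in 3 of the 7, against 5.18% of all. They were 2 regions of Cebpe (49.9 and 44.6%) and the widest of Irf8 (32.1%). For 2 of these 3 the HSC peak measured at least 2000 bp, and the remaining one was the Cebpe peak of 814 bp. Of HSC peaks of at least 2000 bp with an ERY peak, 29.5% were covered to under 50%. That share is counted per HSC peak and not per merged region. CMP covered fewer bases than HSC in 7 of 11 regions, against 51.3% of all 48011, with a median of 93.8% against 99.0%. CMP had under 50% of the HSC number of bases in 1 of the 11, at Irf8, against 2.06% of all. Counted per HSC peak, 11.5% of those of at least 2000 bp with a CMP peak were covered to under 50%. ERY covered fewer bases than CMP in 5 of 8 regions, against 70.9% of all 25218, and under 50% in 0 of the 8, against 2.94% of all. The range ran from 52.6% at Cebpe to 216% in the region at the edge of the Cebpe window. With so few regions and 1 library per stage, these shares are a description.

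The surroundings of the genes differed in how many HSC peaks the later lists kept. In the flanks of 500 kb on both sides of each window, CMP kept 42.9% (Csf3r) to 68.6% (Cebpe) of the HSC peaks and ERY 22.7% (Csf1r) to 48.8% (Cebpe). In the whole HSC list, the shares not kept were 42.9% for CMP and 69.1% for ERY, so the shares kept there lie within both ranges. Around Irf8, where 120 HSC peaks lay, 58.3% were kept in CMP and 36.7% in ERY. In the Irf8 window itself 4 of 8 were kept in CMP and 3 of 8 in ERY. Around Csf3r 26.2% of 84 HSC peaks were kept in ERY, and in its window 1 of 1.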

How the data were processed

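Genomic DNA of 3 MBD2-enriched libraries was analysed. Per the labels' protocols, 225 to 540 ng of enriched DNA went into each library and 36 bp single-end reads were placed uniquely. Positions are on mm9, per the submitters' processing notes. For each cell type the authors deposited 1 list of peaks with 3 columns (chromosome, start and end), which per the file headers came from a table browser query. No label or header names the aligner, the peak caller or its threshold, and the depth is unknown.

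The windows and genes were chosen with earlier results of these data known, and all 6 genes are named. Peaks were called shared at 1 bp in common, and peaks of the 3 lists that overlapped or touched were merged. Shares carry 95% Clopper-Pearson intervals for counting error. Consecutive windows of equal length were laid over the autosomes and X between the first and last peak. These windows, the width classes, the flanks and the covered shares of wide peaks were chosen after the data were seen. Overlap functions were tested on simulated data and checked against bedtools 2.31.1. Python 3.11.15, numpy 2.4.6, pandas 2.3.3, scipy 1.17.1 and matplotlib 3.10.9 were used. Other genes of the pathway, planned only with an mm9 annotation, were not analysed here.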

Additional observations from a re-analysis of the deposited data

How the results depend on the processing

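Of 170 alternative values, 154 stayed inside the binomial interval of their share or within 1.5 times their count or covered bases. The peak at the edge of the Cebpe window accounts for most of the others. CMP peaks without an HSC peak were 0 of 10 with the wider 50% of each list, a setting under which 25.5% of all CMP peaks had none. They were also 0% with windows narrowed by 10% on each side. ERY peaks without an HSC peak were 0% with a peak allowed within 500 bp, against 4.35% of all ERY peaks, and 0% with the narrowed windows. The narrowed windows held 5 ERY peaks, since all 3 lost lie at or near the start of the Cebpe and Irf8 windows. The class of CMP and ERY without HSC had 0 regions when merging within 500 bp and 0 with the wider 50%, where ERY alone had 1. Leaving out each window in turn, CMP peaks without an HSC peak ranged from 0 to 11.1% and ERY peaks without one from 0 (5 peaks) to 20% (1 of 5). HSC peaks absent from CMP ranged from 12.5 to 35.7%. When 50% of the peak had to be covered, HSC peaks absent from ERY were 12 of 16 (75%, against 70.9% of the whole list). Of the 3 added, 2 are HSC peaks of at least 2000 bp and 1 is a Cebpe peak of 814 bp. ERY peaks without a CMP peak were then 1 of 8 (12.5%), and 1 of 7 (14.3%, against 25.3% of all) with the wider 50% of each list. In single windows, Cebpa had 1 HSC peak with windows widened by 10 kb, and Csf3r 2. No paired analysis was possible because each cell type has 1 library and the labels carry no replicate numbers.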
